A study of Mus musculus with 7 samples.

Results

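The genes described here encode the proteins of the cytosolic ribosome. They were taken as every gene on the array whose symbol has the form Rpl or Rps followed by a number, together with Rpsa, Rplp0, Rplp1, Rplp2 and Fau, and without pseudogene symbols and the Rps6k kinases. This gave 87 genes of the 22911 gene symbols that could be named on the array, 53 of the large subunit and 34 of the small subunit, measured by 149 probes. The probe with the brightest mean signal stood for each gene. Genes were chosen by symbol and by no difference between the groups, with earlier results of these data known. This choice kept Rpl32l and Rps4l, copies of Rpl32 and Rps4x, although Rps4l is annotated as a transcribed pseudogene.

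The study asked what the secreted ligand Wnt4 does in adult β-cells, and compared islets of control and Wnt4βKO male mice on Agilent single-colour arrays. Both groups carried floxed Wnt4 on both alleles (Wnt4fl/fl) on lines crossed to C57BL/6J, both received tamoxifen at 4-5 weeks of age, and islets were collected at 7 weeks. The Wnt4βKO mice also carried Pdx1CreER, a tamoxifen-inducible Cre driven by the Pdx1 promoter, which is active in β-cells and some other pancreatic cells. The 3 control samples came from mice without that transgene (Pdx1CreER Tg-; Wnt4fl/fl), so the presence of Cre and the loss of Wnt4 cannot be told apart, and 4 Wnt4βKO samples were compared with them (replicates 1 to 4; control replicates 2 to 4, a further control having been excluded by the study). Values are log2 signals after background correction and quantile normalization, which gives all arrays the same distribution of values. A log2 fold change is the Wnt4βKO mean minus the control mean.

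Each ribosome holds 1 copy of most of these proteins, and the proteins fall into a large subunit, which forms the peptide bond, and a small subunit, which reads the mRNA. Their mRNAs are among the most abundant of any cell and most begin with a run of pyrimidines, the terminal oligopyrimidine (TOP) motif, through which mTORC1 and the RNA-binding protein Larp1 set their translation. In β-cells, where insulin takes a large share of protein synthesis, translation is a major cost, and ribosomal proteins that find no ribosome can bind Mdm2, the ligase that keeps p53 low.

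The arrays differed in ways that touch these values. On each array 45.5 to 49.0% of spots were well above background and no spot was saturated. Wnt4 itself read 11.55, 11.17 and 11.80 in the controls (replicates 2 to 4) and 11.32, 10.82, 11.01 and 10.90 in the mutants (replicates 1 to 4), so 1 mutant array lay above 1 control array (log2 fold change -0.49 ± 0.17 SE, limma adjusted p = 0.651). Where its probe lies relative to the floxed part was not stated. The islet hormone genes Ins1, Gcg and Sst were bright on all arrays (Ins1 at 15.02 to 15.60, Gcg at 13.50 to 14.16, Sst at 13.26 to 13.82), and so were acinar genes: the mean of 26 acinar markers was 13.76 to 13.85 in the controls and 12.55, 13.60, 13.51 and 12.87 in Wnt4βKO replicates 1 to 4, below every control. At an unadjusted p of 0.05 in limma, 8 of the 26 were lower, Cuzd1, Spink1, Rnase1 and Gp2 among them, and 0 higher. Over all tested probes 3.75% were lower and 3.26% higher. Acinar tissue is rich in ribosomes. Of 10 β-cell markers, Ins1 alone was higher (0.30) and Slc2a2 alone lower (-1.54). Ins1 lost its call in 3 of 7 fits with 1 array left out, and Slc2a2 was the only marker past an adjusted p of 0.05. The mean of 5 immune markers ranged from 7.33 to 7.49 in the controls and from 7.31 to 8.33 in the mutants, with none of the 5 past an unadjusted p of 0.05. The mean log2 signal of the 4 spike-in probes well above background on every array, over each array's 75th percentile, was 1.86 to 2.15 in the controls and 2.29 to 3.89 in the mutants. In such bulk samples fewer cells of a type and less RNA per cell cannot be told apart.

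The starts of these genes are shown because the TOP motif lies there, and the windows below cover 40 bases before to 20 bases after the RefSeq start on GRCm38.p6, on the strand of the gene. Capitals mark CTTTC or CTTCC lying within 10 bases of the start, a simple stand-in for a pyrimidine start. The first group holds members with such a run, and the second holds 4 genes whose difference between the groups is described further on. Rpl32l, Rpl26 and Rpl31, also described further on, are not printed. Of these, Rpl32l has CTTCC within 10 bases of the start, and Rpl26 and Rpl31 have neither run there.
Rpl28 (chr7:4792925-4792984, plus strand): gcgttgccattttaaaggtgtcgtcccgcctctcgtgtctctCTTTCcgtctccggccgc
Rpl35 (chr2:39005112-39005171, minus strand): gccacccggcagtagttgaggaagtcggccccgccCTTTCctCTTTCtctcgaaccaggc
Rplp2 (chr7:141447611-141447670, plus strand): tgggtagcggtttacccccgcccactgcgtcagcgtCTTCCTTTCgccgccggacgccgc
Rpl38 (chr11:114668540-114668599, plus strand): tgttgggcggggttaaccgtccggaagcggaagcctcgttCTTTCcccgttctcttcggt
Fau (chr19:6057907-6057966, plus strand): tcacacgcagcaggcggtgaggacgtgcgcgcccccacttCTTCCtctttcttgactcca
Rpl5 (chr5:107900488-107900547, plus strand): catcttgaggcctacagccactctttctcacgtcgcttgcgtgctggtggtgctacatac
Rps3 (chr7:99483690-99483749, minus strand): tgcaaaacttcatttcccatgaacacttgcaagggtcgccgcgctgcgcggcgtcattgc
Rps15 (chr10:80292391-80292450, plus strand): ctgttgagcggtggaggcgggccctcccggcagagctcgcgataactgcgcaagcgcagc
Rpl13a (chr7:45128726-45128785, minus strand): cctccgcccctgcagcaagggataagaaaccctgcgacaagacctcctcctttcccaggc

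Of the 87 genes, 66 had a promoter window of 250 bases before to 50 bases after the start, in 78 windows. On the gene's strand, CTTTC or CTTCC lay within 10 bases of the start in 25.6% of these windows, against 6.53% of all 32851 promoters. CTTTC alone was in 14.1% against 2.44%, and CTTCC alone in 16.7% against 4.21%; the letters overlap where CTTCCTTTC occurs, as in Rplp2. CGGAAG, a core that ETS factors bind, stood on either strand of 59% of the member windows and 16.9% of all. TATAA within 40 bases before the start was in 6.41% of the member windows and 4.23% of all. A match is a description of letters, and the RefSeq start can lie some bases from the start used in islets. The 18 tested members with CTTTC or CTTCC at the start had a median log2 fold change of 0.09 with 14 above 0, and the 44 without it had 0.017 with 24 above 0, which were not tested against each other.

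The ribosomal protein mRNAs were bright. Of the 87 genes, 83 were tested, and each of the 83 was well above background on all 7 arrays, so the filter on dim probes, which asked for 3 arrays, took none of them for being high in 1 group alone. Their mean log2 signal ran from 6.27 for Rpl7l1 to 14.81 for Rps16, with a median of 12.82, and the median of all 26153 tested probes was 6.69. The 4 genes not tested were Rpl10l, with 1 array well above background, Rpl37, with 2, and Rpl3l and Rpl39l, with 0. Rpl10l, Rpl3l and Rpl39l are copies known for expression in testis or striated muscle. Rpl37 is a core protein, and its probe gives only a bound. Signals of different probes are not comparable as amounts of mRNA, and ribosomal protein genes have many near-identical processed pseudogenes, so a probe may also read these.

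After quantile normalization, the mean signal of the ribosomal protein mRNAs overlapped between control and Wnt4βKO islets, with single genes scattered around 0. This level depended on the scaling: with signals divided by their 75th percentile the median log2 fold change was 0.18, with 71 of 83 genes above 0. Averaged over the 83 genes after quantile normalization, the signal of control replicates 2, 3 and 4 was 12.47, 12.45 and 12.43, and that of the mutants 12.41, 12.52, 12.48 and 12.41 for replicates 1 to 4. The mutant arrays held both the highest and the lowest of the 7 values. After that normalization the median log2 fold change of the 83 was 0.031, beside 0.0011 over all tested probes, with 48 of 83 above 0 (57.8%) beside 50.4% of all tested probes. The middle part of the members lay between -0.083 and 0.14 at the quartiles, and the quartiles of all tested probes were -0.093 and 0.092. The log2 fold change was smaller than 0.1 in size for 38 members and smaller than 0.3 for 76, with a median SE of 0.14.

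**Figure D1:**
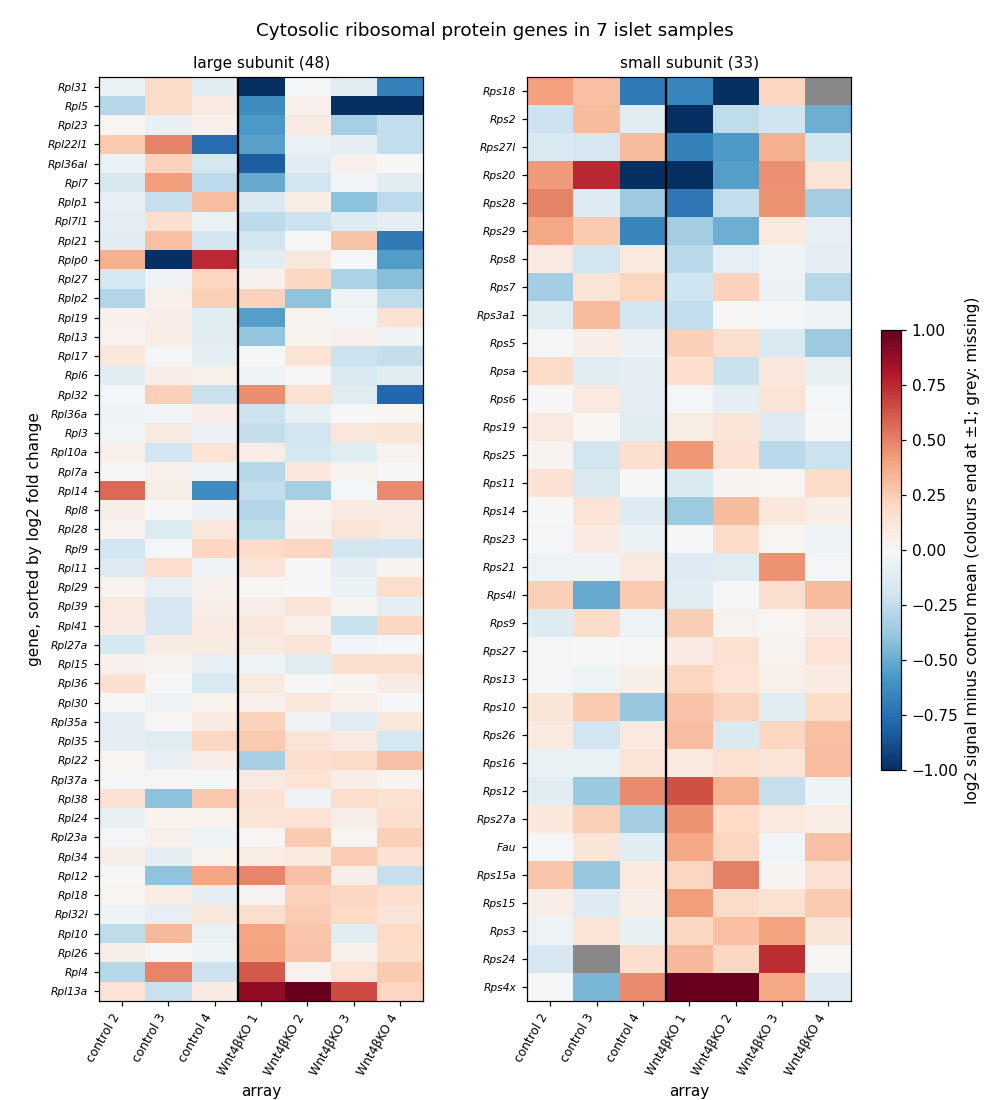
Each row is 1 of 81 tested ribosomal protein genes and each column 1 array, coloured by log2 signal minus that gene's control mean, with 48 large-subunit genes on the left and 33 small-subunit genes on the right. Most cells are pale. Strong colours include single arrays, such as Wnt4βKO replicate 1 for Rpl31 and replicate 2 for Rpl13a. Other genes, such as Rpl5, Rps4x and Rps20, are strongly coloured on more than 1 array. Grey marks the 2 missing values.

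After Benjamini-Hochberg adjustment in limma no member was past 0.05 (lowest adjusted p = 0.651), where 0.0153% of all tested probes did. At an unadjusted p under 0.05, 5 members were higher in Wnt4βKO islets (6.02% of 83, background 3.26%) and 1 was lower (1.2%, background 3.75%). In 8 members every mutant array lay above every control array (9.64%, background 3.44%), and in 1 every mutant array lay below (1.2%, background 3.84%). The 5 higher members had folds of 1.14 to 1.20, and the lower one a fold of 0.60. These counts depended on the processing: 0 to 12 members were higher and 0 to 3 lower under the alternatives tried, the 12 where dim probes were kept in the fit and the 0 under median scaling. With dim probes kept, 1365 of all 56605 probes were higher, and under median scaling 216 of 26153. As the mean over the probes of a gene, where 3 members were lower, 811 of 20722 were lower.

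The members that were higher came from both subunits, and 4 of the 5 are described. Rps15, a small-subunit protein near the decoding site, read 12.83, 12.64 and 12.84 in the controls (replicates 2 to 4, in that order throughout) and 13.18, 12.96, 12.92 and 13.03 in the mutants (replicates 1 to 4). All 4 mutant arrays stood above the controls, by the most in replicate 1 (0.26 ± 0.09 SE, adjusted p = 0.658 in limma). Rps3, which lines the mRNA entry channel and also takes part in DNA repair, read 12.12, 12.30 and 12.10 against 12.38, 12.47, 12.58 and 12.30. Here Wnt4βKO replicate 4 fell just below control replicate 3, so the groups touched (0.26 ± 0.09 SE, adjusted p = 0.675 in limma).

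Rpl26, which sits by the peptide exit tunnel and binds the p53 mRNA, read 12.46, 12.39 and 12.36 in the controls and 12.81, 12.69, 12.45 and 12.59 in the mutants. Wnt4βKO replicate 3 lay just below control replicate 2 (0.23 ± 0.10 SE, adjusted p = 0.702 in limma). The other probes of Rpl26 gave 0.09 ± 0.18 and -0.29 ± 0.22, and the mean over its probes 0.0089. Rpl32l read 10.53, 10.49 and 10.68 against 10.75, 10.82, 10.76 and 10.69, with mutants above controls by a narrow margin in replicate 4 (0.19 ± 0.08 SE, adjusted p = 0.688 in limma). All 4 were higher in the mutants within each of the slide's rows of arrays, by 0.10 to 0.39 in row 1 and 0.10 to 0.24 in row 2. Rpl32 itself, of which Rpl32l is a copy, gave -0.072 ± 0.28 with overlapping groups.

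Rpl5 was the 1 member that was lower. It carries the small ribosomal RNA of the large subunit together with Rpl11 and is among the ribosomal proteins that bind Mdm2. It read 9.57, 10.05 and 9.95 in the controls and 9.23, 9.90, 8.68 and 8.62 in the mutants (-0.75 ± 0.31 SE, adjusted p = 0.702 in limma). Replicates 3 and 4 were far below the controls, while replicate 2 lay among them. The difference was -0.38 in slide row 1 and -1.16 in slide row 2. Rpl11, its partner, read 13.67, 13.97 and 13.75 against 13.92, 13.80, 13.70 and 13.82, a difference of 0.015 ± 0.098.

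None of the 5 calls described held in every fit with 1 array left out. Rpl5 passed an unadjusted p of 0.05 only without control replicate 2 or Wnt4βKO replicate 2 and otherwise did not (p up to 0.13), with a difference between -1.01 and -0.59. Rpl26 lost its call in 6 of 7 such fits, all but the one without Wnt4βKO replicate 3 (p up to 0.12), and Rpl32l in 5, without control replicate 2 or 3 or Wnt4βKO replicate 1, 2 or 3 (p up to 0.12). Rps3 lost it without control replicate 2 or 4 or Wnt4βKO replicate 2 or 3 (p up to 0.095), and Rps15 without control replicate 3 or Wnt4βKO replicate 1 or 4 (p up to 0.091). The 4 higher differences stayed above 0 and that of Rpl5 below 0 throughout. With the acinar mean as a covariate, Rps3 was 0.38 and past that threshold, while Rps15, Rpl26, Rpl32l and Rpl5 were 0.12, 0.12, 0.23 and -0.53 and no longer past it.

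**Figure D2:**
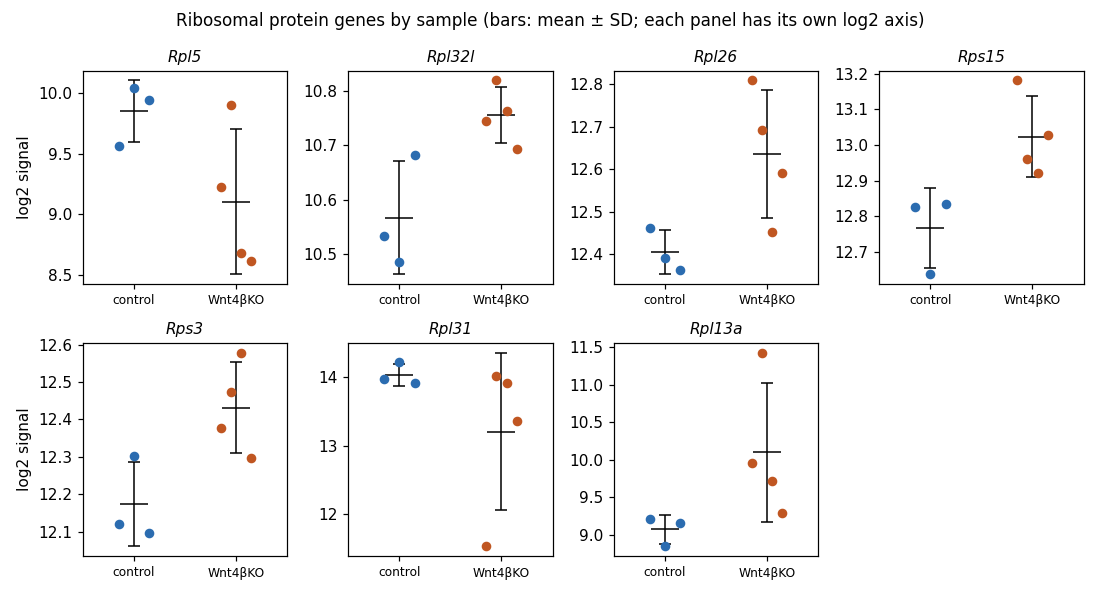
Points are log2 signals of the 3 control samples (blue) and the 4 Wnt4βKO samples (orange), with mean ± SD as bars, for 5 members past an unadjusted limma p of 0.05 and for the members with the lowest and highest fold change. The mutant values of Rps15, Rpl32l and Rpl13a sit above all controls, while Rpl31 is low in 1 mutant array at 11.54.

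The largest differences in either direction came from 1 or a few arrays and had wide errors: 6 members exceeded 0.5 in size, each with an SE over 0.25. Rpl13a, which also silences translation of inflammatory mRNAs outside the ribosome, read 9.21, 8.85 and 9.15 in the controls and 9.96, 11.43, 9.72 and 9.29 in the mutants. All 4 mutants were above the controls, Wnt4βKO replicate 2 by the most (1.03 ± 0.46 SE, adjusted p = 0.732 in limma). Without that array the difference was 0.58, past an unadjusted p of 0.05 but with an adjusted p of 0.491 in limma, and without Wnt4βKO replicate 4 it was 1.30 and past the same threshold. With the acinar covariate it was 1.71 and on 75th-percentile scaling 1.15, both past an unadjusted p of 0.05 in limma. Rps4x read 10.40, 9.97 and 10.89 against 11.41, 11.67, 10.81 and 10.29, with overlapping groups (0.63 ± 0.36; 0.40 without control replicate 3 and 0.42 without Wnt4βKO replicate 2). It passed an unadjusted p of 0.05 in limma without Wnt4βKO replicate 4, at 0.88. Rps24 read 12.43 and 12.77 against 12.93, 12.81, 13.34 and 12.62, its spot on control replicate 3 being missing (0.32 ± 0.21). Its difference was 0.15 without control replicate 2 and 0.18 without Wnt4βKO replicate 3. The dimmer probes of Rps24, with values on every array, gave -0.0095 ± 0.33 and 0.25 ± 0.36.

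At the other end, Rpl31 read 13.97, 14.22 and 13.92 in the controls and 11.54, 14.01, 13.92 and 13.36 in the mutants. Wnt4βKO replicate 1 stood far below all other arrays (-0.83 ± 0.57; -0.27 without it), and a dimmer probe of Rpl31 read 11.61 there, the lowest of a narrow range that reached 11.97, for a difference of -0.03 ± 0.11. That array also had the lowest acinar mean of the 7. With the acinar mean as a covariate the difference of the bright Rpl31 probe was 0.54 ± 0.40. Rps18 read 14.34, 14.23 and 13.22 against 13.28, 12.49 and 14.14, with Wnt4βKO replicate 4 missing (-0.63 ± 0.48; -0.22 without Wnt4βKO replicate 2, -1.04 without its replicate 3 and -0.98 without control replicate 4). The dimmer probes of Rps18, with values on all 7 arrays, gave -0.18 ± 0.18 and 0.28 ± 0.15. No probe of Rpl31 or Rps18 passed an unadjusted p of 0.05 in limma.

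**Figure D3:**
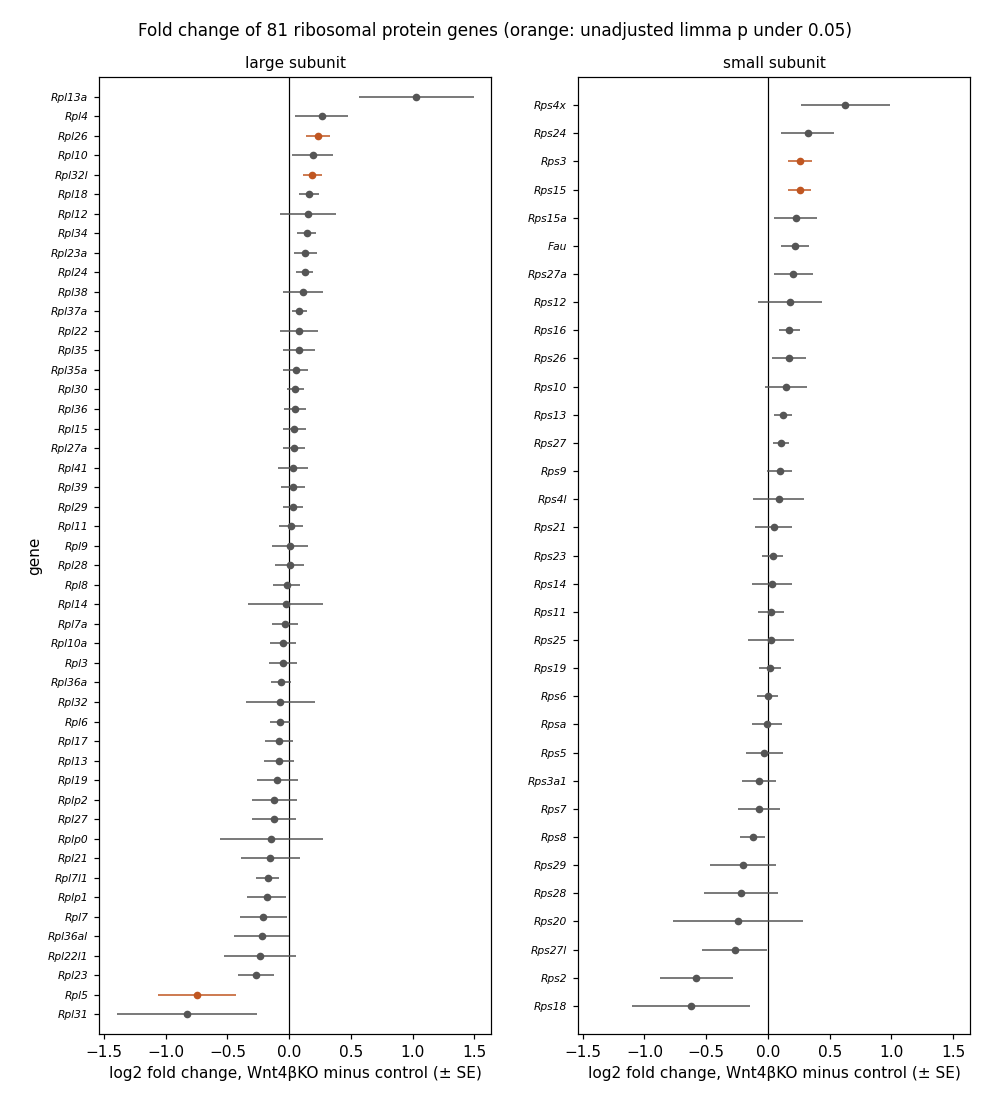
Points are the log2 fold changes of 81 tested members, Wnt4βKO minus control, with SE bars, sorted within the large subunit (left) and the small subunit (right); orange marks 5 members past an unadjusted limma p of 0.05. Most points lie within 0.3 of 0. The members farthest out, Rpl13a at 1.03 and Rpl31 at -0.83, have wide bars (0.46 and 0.57), as do Rps20 (0.53) and Rps18 (0.48).

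Further members whose groups did not overlap had small differences and narrow spreads. Rpl37a read 14.41, 14.43 and 14.42 in the controls and 14.51, 14.55, 14.49 and 14.45 in the mutants (0.08 ± 0.06). Rps27 read 13.52, 13.54 and 13.54 against 13.61, 13.69, 13.57 and 13.67 (0.10 ± 0.06), and its other probe gave 0.18 ± 0.06 with an unadjusted p of 0.027 in limma. Rpl24 read 11.43, 11.54 and 11.54 against 11.63, 11.64, 11.57 and 11.67 (0.13 ± 0.07), and Rpl34 12.12, 11.98 and 12.10 against 12.14, 12.16, 12.32 and 12.21 (0.14 ± 0.08). Rpl7l1, a large-subunit paralog that acts in ribosome assembly, was the only member below all controls, at 6.27, 6.54 and 6.30 against 6.10, 6.16, 6.24 and 6.27 (-0.18 ± 0.09). Its margin in replicate 4 was under 0.01, and its signal was the dimmest of the tested members. Without control replicate 3 its difference was -0.087, and on 75th-percentile scaling it was -0.63, neither past an unadjusted p of 0.05 in limma.

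Both subunits had medians near 0. Over all tested probes 50.4% were above 0, and 3.26% were higher and 3.75% lower at an unadjusted p of 0.05 in limma. The 49 large-subunit members had a median log2 fold change of 0.0055, with 26 above 0 and 3 higher and 1 lower at an unadjusted p of 0.05, and the 34 small-subunit members had 0.042, with 22 above 0 and 2 higher. The large-subunit mean was 12.37, 12.39 and 12.38 in the controls and 12.31, 12.47, 12.36 and 12.33 in the mutants. The small-subunit mean was 12.60, 12.56 and 12.50 against 12.55, 12.59, 12.65 and 12.52. Both sets of means overlapped between the groups.

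Members with particular roles gave small differences with overlapping groups. The P-stalk proteins Rplp0, Rplp1 and Rplp2, which recruit the GTPases of translation, gave -0.14 ± 0.42, -0.18 ± 0.16 and -0.12 ± 0.18. Rplp0, a common reference gene, ranged from 9.27 in control replicate 3 to 11.12 in control replicate 4, wider than its 9.82 to 10.49 in the mutants. Without control replicate 3 its difference was -0.70 and past an unadjusted p of 0.05 in limma, and without control replicate 4 it was 0.23. The genes made as fusions, Fau with a ubiquitin-like protein and Rps27a with ubiquitin, gave 0.22 ± 0.11 and 0.20 ± 0.16. Without control replicate 4 the difference of Rps27a was 0.034. Fau read 14.28, 14.42 and 14.20 in the controls and 14.68, 14.52, 14.27 and 14.60 in the mutants, where replicate 3 was the lowest; without it the difference was 0.31 and past an unadjusted p of 0.05 in limma.

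Rps6, the small-subunit protein that is phosphorylated downstream of mTORC1, read 12.75, 12.85 and 12.65 in the controls and 12.73, 12.65, 12.88 and 12.73 in the mutants (-0.0020 ± 0.085; 0.21 on signals scaled to the 75th percentile). Rps19, often mutated in Diamond-Blackfan anaemia, gave 0.018 ± 0.090 and Rpsa, which also serves as a laminin receptor, -0.0057 ± 0.12. The 18 members chosen here for mutation in Diamond-Blackfan anaemia, which need not be all, had a median of 0.047, with 12 above 0. At an unadjusted p of 0.05 in limma 1 was higher (Rpl26) and 1 lower (Rpl5), beside 3.26% and 3.75% of all tested probes. Of 5 members chosen here for binding to Mdm2, which need not be all that do, Rps3 was higher and Rpl5 lower. The others, Rpl11, Rpl23 and Rps7, gave 0.015 ± 0.098, -0.27 ± 0.15 and -0.075 ± 0.17.

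Paralogs that can replace a core protein in the ribosome are known to vary between tissues. Rpl22l1 read 10.38, 10.61 and 9.36 in the controls and 9.58, 10.05, 10.02 and 9.87 in the mutants (-0.24 ± 0.29), control replicate 4 being the lowest of all arrays. Without control replicate 4 its difference was -0.62 and past an unadjusted p of 0.05 in limma, and without control replicate 3 it was 0.0098. Rpl36al gave -0.22 ± 0.22, with Wnt4βKO replicate 1 the lowest array at 10.73 (0.16 with the acinar covariate). Rps27l, which p53 is known to induce, gave -0.27 ± 0.26 (-0.48 and past an unadjusted p of 0.05 without Wnt4βKO replicate 3), and its dimmer probe read 9.85, 10.14 and 9.47 against 8.61, 9.36, 9.68 and 8.97 (-0.67 ± 0.27), past an unadjusted p of 0.05 in limma. Rps4l gave 0.087 ± 0.21, and -0.16 without control replicate 3.

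Probes of the same gene often disagreed. Of 45 members with several tested probes, all probes had the same sign in 24, the median range between probes of a gene was 0.25, and 8 had a range over 0.5: Rpl3, Rpl6, Rpl26, Rpl31, Rpl36a, Rpl36al, Rpl39 and Rps18. Rpl3, a protein at the peptidyl transferase centre, gave -0.052 ± 0.12 with its brightest probe. Another Rpl3 probe read 12.22, 12.19 and 12.03 in the controls and 11.70, 11.73, 11.06 and 11.77 in the mutants, below every control (-0.58 ± 0.18, past an unadjusted p of 0.05 in limma), and the last gave -0.92 ± 0.53. The mean over the probes of Rpl3 was -0.52, past an unadjusted p of 0.05 in limma. For Rpl36a the brightest probe gave -0.067 ± 0.081 and the dimmest 0.76 ± 0.40, and the mean over its probes was 0.31. The brightest probe of Rpl6 gave -0.076 ± 0.079 and another -0.66 ± 0.34, and those of Rpl39 spanned -0.23 to 0.50 around the 0.031 ± 0.094 of its brightest.

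The sign and size of the family's difference rested on how arrays were scaled. With quantile normalization the median was 0.031, with cyclic loess it was -0.0094 with 41 of 83 above 0, and with median scaling it was 0.089 with 57 above 0, where the median of all probes was -0.016. When the scanner's own processed signals were divided by their 75th percentile, the median was 0.18 with 71 of 83 above 0 (85.5%), against 0.029 and 53.3% over all tested probes. There, the mean over members was 6.57, 6.28 and 6.65 in the controls and 6.75, 6.74, 6.58 and 6.57 in the mutants. Control replicate 3 lay below all other arrays, and its 75th percentile, 82.4 against 44.4 to 61.5 units of signal, was the highest of the 7. Without control replicate 3 the median was 0.059 with 58 above 0, and without each other array it was 0.13 to 0.26. Under quantile normalization, 445 probes with a mean log2 above 12 had a median of -0.00085 with 49.9% above 0, and the 47 above 14, 8 of them members, had 0.042 with 68.1% above 0, beside 50.4% of all tested probes.

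**Figure D4:**
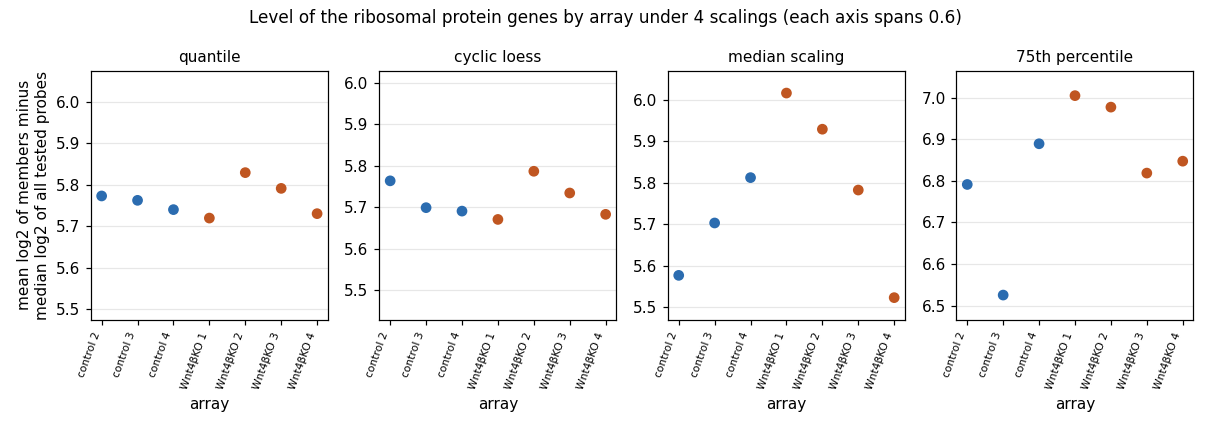
Each point is 1 array (blue control, orange Wnt4βKO), with the mean log2 of the 83 members minus the median log2 of all tested probes on the y axis, in 1 panel for each of 4 scalings on axes of equal span. The groups overlap in every panel, and control replicate 3 lies lowest under 75th-percentile scaling only.

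Members also differed by the position of the array on the slide. All 7 arrays were on 1 slide, with control replicate 4 and Wnt4βKO replicates 1 and 2 in row 1 and the rest in row 2, so both groups were in both rows. This split was examined after the values were seen. With genotype in the model, 16 of 83 members differed between rows at an unadjusted limma p of 0.05 (background 10.6%), 10 higher in row 1 and 6 in row 2, and 0 at an adjusted p (background 0%; lowest adjusted p = 0.143). Rps20 was the largest, at 10.89, 11.07 and 11.52 in row 1 and 12.50, 12.83, 12.53 and 12.21 in row 2 (1.35 ± 0.20). Rps12 read 13.26, 13.42 and 13.13 in row 1 and 12.68, 12.42, 12.55 and 12.74 in row 2 (-0.66 ± 0.11). The rows did not overlap for these or for Rpl27 (-0.43 ± 0.09), Rps29 (0.65 ± 0.14), Rpl9 (-0.36 ± 0.08) and Rps18 (1.16 ± 0.23).

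Rps4x and Rps18, among the members farthest from 0 between the genotypes, were also among the 16. Rps4x was higher in row 1, at 10.89, 11.41 and 11.67, than in row 2, at 10.40, 9.97, 10.81 and 10.29 (-0.88 ± 0.18), and within the rows the mutants were above the controls by 0.65 and 0.37. Rpl5 was lower in row 2 as well (-0.61 ± 0.24). Within row 1 the median log2 fold change of the members was 0.027 with 46 above 0, and within row 2 it was 0.018 with 47 above 0. Of the 83 members, 46 had the same sign of the difference in both rows, and the share over all tested probes was not counted. With the row as a term, 5 members were higher and 2 lower at an unadjusted p of 0.05, beside 946 and 1103 of 26153 tested probes. What differed between the rows was not stated, and its part in these differences was not tested.

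**Figure D5:**
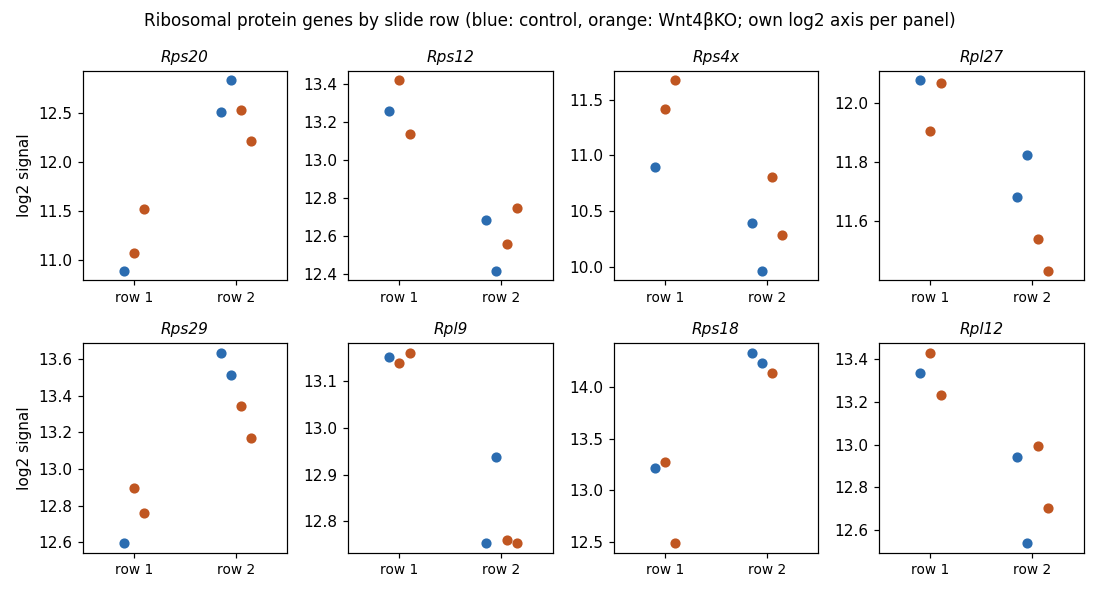
Points are log2 signals of the arrays in slide row 1 (control replicate 4, Wnt4βKO replicates 1 and 2) and row 2 (control replicates 2 and 3, Wnt4βKO replicates 3 and 4) for 8 members with low p for the row, blue for control and orange for Wnt4βKO. The rows separate in all 8, with control and mutant arrays in each row.

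Arrays differed in how often they held a member's extreme value. Over the 81 members with all 7 values, Wnt4βKO replicate 1 was the lowest array for 20 and the highest for 19, and Wnt4βKO replicate 2 was the lowest for 3 and the highest for 19. Control replicate 3 was the lowest for 20 and the highest for 13. Among the members Wnt4βKO replicate 1 was often extreme in both directions, and the share over all tested probes was not counted. It was also the array with the lowest acinar mean and the highest spike-in signal, whose part in this was not tested.

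Other genes of the ribosome and its control gave medians near 0 with a few members past an unadjusted p of 0.05 and 0 past an adjusted one. Over all tested probes, 3.26% were higher and 3.75% lower at that unadjusted p. The 78 mitochondrial ribosomal proteins, which translate the mitochondrial genome, had a median of 0.053 with 50 above 0, 5 higher and 1 lower. Mrpl34 read 8.22, 7.92 and 7.75 in the controls and 8.69, 8.53, 8.71 and 8.46 in the mutants, above every control (0.63 ± 0.13, adjusted p = 0.480 in limma), and it stayed past an unadjusted p of 0.05 in all 20 alternatives. Mrpl36, Mrpl40 and Mrps10 gave 0.52 ± 0.17, 0.43 ± 0.15 and 0.35 ± 0.12. Mrpl40 lost its call without control replicate 2 or 3 or Wnt4βKO replicate 1 or 2 (p up to 0.079), and Mrps10 without control replicate 2 or 4 (p up to 0.077).

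The 17 other mRNAs with a TOP start, such as elongation factors, had a median of 0.041 with 9 above 0. Tpt1, a translationally controlled growth protein, was the only one past the threshold, at 14.30, 14.36 and 13.97 against 14.63, 14.42, 14.57 and 14.63 (0.35 ± 0.11; -0.15 as the mean over its probes). The 37 ribosome biogenesis factors had a median of 0.023, with 4 higher and 1 lower. Sbds and Eif6, which act together in releasing the large subunit for use, gave 0.46 ± 0.15 and 0.35 ± 0.14, and Tcof1, the treacle protein of the nucleolus, 0.46 ± 0.16. Npm1, a nucleolar chaperone of ribosome assembly, read 10.08, 10.52 and 9.63 against 9.61, 8.97, 9.50 and 9.57 (-0.67 ± 0.23; -0.19 as the mean over its probes). These calls were lost without control replicate 2 for Sbds, Eif6, Tcof1 and Npm1, without control replicate 3 for Eif6, Tcof1 and Npm1, without Wnt4βKO replicate 1 or 4 for Tcof1 and without Wnt4βKO replicate 2 for Npm1 (p up to 0.12). With the acinar covariate Sbds, Eif6 and Tcof1 were 0.20, 0.093 and 0.17. As the mean over their probes Sbds was 0.10 and Tcof1 0.29, and neither was past an unadjusted p of 0.05 in limma.

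The 13 genes of the RNA polymerase I machinery, which transcribes ribosomal RNA, had a median of -0.0067, and Taf1b alone passed, at -0.22 ± 0.09 (lost in 6 of 7 fits with 1 array left out, all but the one without control replicate 2; p up to 0.17). As the mean over its probes Taf1b was -0.095 and no longer past the threshold. The 13 genes of mTORC1 and TOP control had a median of -0.090, with 1 higher and 3 lower. Larp1, the protein that binds TOP starts, read 11.13, 11.08 and 10.94 in the controls and 10.28, 10.43, 10.71 and 10.77 in the mutants, below every control (-0.50 ± 0.13, adjusted p = 0.540 in limma). It kept its call whichever array was left out, and gave -0.41 with the acinar covariate (unadjusted p above 0.05 in limma). Eif4ebp1, a repressor of cap-dependent translation, gave -0.44 ± 0.17 and Myc, an activator of ribosome production, -0.27 ± 0.11, while Mlst8, an mTORC1 subunit, gave 0.25 ± 0.09. Leaving out control replicate 4 or Wnt4βKO replicate 1 or 4 ended the calls of all 3 (p up to 0.12), as did Wnt4βKO replicate 2 for Eif4ebp1 and Myc and control replicate 3 for Myc and Mlst8.

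Of 12 tested p53 targets, 4 were higher and 2 lower (background 3.26% and 3.75% of all tested probes), with a median of 0.10 and 7 above 0. Phlda3, an Akt repressor, read 6.61, 6.65 and 6.78 in the controls and 7.11, 7.22, 7.34 and 7.37 in the mutants (0.58 ± 0.09, adjusted p = 0.345 in limma). Bax, an effector of apoptosis, read 7.38, 7.75 and 6.89 against 8.27, 7.81, 8.13 and 8.34 (0.80 ± 0.21, adjusted p = 0.547 in limma). Sesn2, an inhibitor of mTORC1, gave 0.50 ± 0.12 and Aen, a nuclease, 0.51 ± 0.16. In these 4 every mutant array was above every control, and each call stood whichever array was left out. As the mean over their probes Bax was 0.40 and Aen 0.33, and Aen was then not past an unadjusted p of 0.05 in limma. With the acinar covariate, Phlda3, Bax, Sesn2 and Aen were 0.63, 0.56, 0.23 and 0.14, of which Phlda3 alone was past an unadjusted p of 0.05 in limma. The 2 lower targets, Trp53inp1 (-0.46 ± 0.18) and Sesn1 (-0.26 ± 0.11), were named after their values were seen. Cdkn1a and Mdm2, the best-known targets, gave 0.23 ± 0.20 and -0.32 ± 0.16.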

How the data were processed

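RNA of 7 islet samples was hybridised to 1-colour Agilent arrays, with 50 ng labelled with Cy3 per the labels. The authors deposited scanner outputs with linear intensity values, made with Agilent Feature Extraction 12.0.1.1 per the file headers (9.1 in the submitters' processing notes) and not normalized between arrays. From the deposited median signal intensity and local background, normexp (offset 50) and quantile normalization were applied, as in the study's methods. Probes well above background on 3 of 7 arrays were tested (26153 of 56605), and log2 values were fitted with lmFit and eBayes in limma 3.58.1 (R 4.3.3), as a two-sided test whose p-values were adjusted over all tested probes (Benjamini-Hochberg), after the procedure was tested on simulated data. The number of arrays limits the precision. The labels number the samples but do not say how many mice each held, so p-values measure the spread between these samples, which may be technical.

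Probes were named through RefSeq accessions (58.3% of probes), and promoter sequences are RefSeq's, on GRCm38.p6. The members and gene lists were chosen with earlier results of these data known. Genes were named where their unadjusted p was under 0.05 (at most 4 in a list of other genes), for the 3 largest and 3 smallest fold changes, for paralogs, P-stalk and fusion genes, for Rpl5, Rpl11, Rps6, Rps19 and Rpsa, and where probes differed by over 0.5. Rpl37a, Rps27, Rpl24 and Rpl34, which passed only by non-overlap, the members named for the slide row, and Rpl23, Rps7, Cdkn1a and Mdm2 were named outside this rule. A further table of the authors, deposited on a log2 scale, covers 36693 probes. Its columns did not match the arrays (r of deviations from the probe mean -0.15 to 0.19 for each array against its own column), so it was not used. Same-numbered samples of the groups correlated in their deviations from the group means at -0.13, 0.23 and -0.0057, so the numbers were not taken as pairs. The alternatives were other background, scaling, filter and variance choices, array weights, blocks for replicate number and slide row, the acinar mean as covariate, the mean over probes and each array left out. The 75th percentile scaling with arrays left out was chosen after seeing the data. Further steps used Python 3.11.15. Results of 2 members stand in the counts and are not reported here by name or drawn.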

Additional observations from a re-analysis of the deposited data

Results flagged for a closer look

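Of 75 sets of values for the named genes and the gene lists in the 4 Wnt4βKO arrays, 3 had 1 array whose gap to the nearest exceeded Dixon's critical value at the usual level, as a share of the group's range, where chance gives about 1 in 20, or 3.75. Eif6 read 10.22 in Wnt4βKO replicate 1 and 9.74 to 9.75 in the others, a gap of 0.969 of the range. The mean of the 3 tested large-subunit paralogs was 8.80 in replicate 1 and 9.21 to 9.29 in the others (0.85). Npm1 read 8.97 in replicate 2 and 9.50 to 9.61 in the others (0.833).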

How the results depend on the processing

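The count of members higher in Wnt4βKO islets at an unadjusted p of 0.05 was 5, and became 1 without background correction, with an offset of 0, with signals scaled to the 75th percentile, with a trended robust variance and with the replicate block, 3 with cyclic loess, with probes well above background on all arrays and with the acinar covariate, 0 with median scaling and 12 with no filter on dim probes. Each array left out in turn gave 1 to 4. The higher count over all tested probes moved too, from 853 of 26153. It became 780 without background correction, 722 with an offset of 0, 767 with 75th percentile scaling and 683 with trended robust variance. With the replicate block it was 792, with cyclic loess 749, with the acinar covariate 305 and with median scaling 216. It was 722 of 21333 well above background on all arrays and 1365 of 56605 unfiltered. With 1 array left out it was 655 to 1164. The count of lower members was 1. It became 0 with 75th percentile scaling, with median scaling, with no filter, with the replicate block and with the acinar covariate. It was 2 with the slide row as a block and 3 as the mean over probes, and each array left out gave 0 to 2. Over all tested probes the lower count was 982. It became 1017 with 75th percentile scaling, 551 with median scaling and 787 with the replicate block. It was 326 with the acinar covariate, 1103 with the slide row as a block and 1556 of 56605 with no filter. As the mean over probes it was 811 of 20722, and each array left out gave 729 to 1085. The median log2 fold change was 0.031, moved beyond the within-group SD of the array means (0.045) to 0.18 with 75th percentile scaling and 0.089 with median scaling, and was 0.0098 to 0.041 with each array left out. On 75th percentile scaling with each array left out, the median was 0.24, 0.059 and 0.26 as controls 2, 3 and 4 were dropped and 0.13, 0.17, 0.21 and 0.20 as mutants 1 to 4 were, the higher count 0 to 3 and the lower count 0 to 1. Over all tested probes those fits gave 599 to 1002 higher and 781 to 1122 lower. The replicate block, over control and mutant replicates 2, 3 and 4, gave a median of 0.033 and leaves out Wnt4βKO replicate 1. Reversals, counted where a value exceeded its SE in either fit, were Rpl31 (0.54) and Rpl36al (0.16) with the acinar covariate, Rps18 (0.021) and Rps6 (0.21) with 75th percentile scaling, Rps4l (-0.16 to 0.22) with 1 array left out, negative without control replicate 3, Rpl36a (0.31) and Tpt1 (-0.15) as the mean over probes, and Ins1 (-0.027) with cyclic loess. Of the other values of single genes, 842 stayed on their side of the threshold, 195 lost and 15 gained it. The cause of these changes was not tested. The deposited value table could not be used as an alternative and was not run.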
